A study of Oedaleus asiaticus with 9 samples.

Results

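The miR-184 family was represented by 3 entries, miR-184-x, miR-184-y and miR-184-z, taken by name from the 365 miRNA entries listed for female *Oedaleus asiaticus*, a band-winged grasshopper. Small RNA had been sequenced from 3rd instar nymphs, 5th instar nymphs and adults, all 3 days old, female and kept under normal feeding with no special treatment, in 3 libraries per stage and 9 in all. The labels name no tissue or body part and do not say whether a stage's libraries come from separate animals, so the p-values below measure only the spread between these libraries, which may be technical. Total counts over the listed entries ran from 1462586 to 5309504 per library. A single predicted entry took 59.1% to 74.0% of them, which bears on any level expressed relative to the library total.

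A miRNA gene is transcribed as a hairpin that is trimmed to a short duplex. A guide strand is loaded into an Argonaute protein and pairs with messenger RNAs mainly through its seed, while the partner strand is usually degraded and is found at a lower level. miR-184 is a deeply conserved miRNA shared by insects and vertebrates. In *Drosophila melanogaster* females it is required for egg formation, where it acts in the differentiation of germline stem cells and in laying down the axes of the egg and embryo, through targets that include the Dpp receptor Saxophone and the transcription factor Tramtrack69. The sampled stages lie on either side of the final moult, and grasshopper females mature eggs only as adults.

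The 3 sequences are shown because they set what can be compared between the entries. Each is written from the 5′ end to the 3′ end as deposited, with the seed (bases 2 to 8) in capitals.
miR-184-x: cCTTGTCAttctcctgtccagt
miR-184-y: tGGACGGAgaactgataagg
miR-184-z: tGGACGGAgaactgataagggcat
miR-184-y (20 nt) is the first part of miR-184-z (24 nt), which goes on for 4 more bases at its 3′ end. Both have the seed GGACGGA, and no other entry of the table has that seed or holds or lies within either sequence. Reads of the shared stretch could in principle be counted in either entry, and the labels do not say how the authors divided them. miR-184-x (22 nt) has a different seed, CTTGTCA, which no other entry shares, and it overlaps no other entry.

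Folded against each other with RNAduplex, miR-184-x and miR-184-y formed 19 base pairs, 1 of them a G-U pair, with a single unpaired base inside each strand and a computed energy of -26.4 kcal/mol. The last 2 bases of miR-184-x were left unpaired at its 3′ end, and miR-184-y was paired to its last base. Against miR-184-z the same 19 pairs formed, with 4 unpaired bases at the 3′ end of miR-184-z (-27.7 kcal/mol). Of the 40 family names with both an x and a y entry, 4 share both sequences, which leaves 37 distinct pairs. Their energies ran from -8.10 to -31.5 kcal/mol with a median of -20.2, and 5 pairs had a stronger duplex than miR-184. The labels do not explain the letters x, y and z. The pairing is that of opposite strands of a hairpin, so the ratio of miR-184-x to miR-184-y is read below as a ratio between arms, while miR-184-z is a longer form of the same arm as miR-184-y.

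miR-184-y, which carries the miR-184 seed, was abundant in every library. Counts of 11993, 14790 and 21080 were listed for the 3rd instar, 9224, 7604 and 10776 for the 5th instar, and 7960, 15784 and 20073 for the adult. It ranked between 13th and 15th of the 365 entries in each of the 9 libraries. The 3 entries together held 0.399% to 0.550% of the counts of a library. miR-184-z and miR-184-x were minor, with 43 to 129 and 40 to 94 counts per library and ranks of 89 to 104 and 88 to 107. Over the 9 libraries there were 176 counts of miR-184-y for each count of miR-184-z and 191 for each count of miR-184-x. Counts of different sequences are read numbers, not numbers of molecules.

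After scaling by library size and TMM factors, which balance the libraries on the bulk of the entries, miR-184-y stood at 4008, 5517 and 4646 normalised CPM (counts scaled to a common library size) in 3rd instar libraries, 4469, 3611.5 and 4049 CPM in 5th instar libraries, and 5267, 4906 and 4360 CPM in adult libraries. The stages overlapped throughout, and the highest library was 1.53 times the lowest. Stage means were 4724 ± 757, 4043 ± 429 and 4844 ± 456 CPM in that order (SD, n = 3 each). In order of level the adult came first, the 3rd instar second and the 5th instar last, with neighbouring stages apart by no more than the SD of the 3rd instar. At this depth the Poisson 95% interval of a single library was at most 232 CPM wide, so that the spread between libraries of a stage exceeded counting error.

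miR-184-x, the partner strand, was at 21.4, 22.4 and 19.8 CPM in 3rd instar libraries, 31.0, 28.0 and 30.1 CPM in 5th instar libraries, and 26.5, 22.4 and 20.4 CPM in adult libraries. All 3 libraries of the 5th instar lay above all 6 of the other stages, and the 3rd instar and the adult overlapped. Its stage means were 21.2 ± 1.28, 29.7 ± 1.53 and 23.1 ± 3.09 CPM. miR-184-z, the longer form, was at 28.1, 28.7 and 24.2 CPM in 3rd instar libraries, 20.8, 21.8 and 21.04 CPM in 5th instar libraries, and 29.8, 27.7 and 28.02 CPM in adult libraries. Its 5th instar libraries lay below all 6 others, with stage means of 27.01 ± 2.42, 21.2 ± 0.535 and 28.5 ± 1.13 CPM. Counting error was wide beside these SDs, and Poisson 95% intervals of single libraries overlapped between stages. For miR-184-z they were 15.1 to 28.1 CPM in 5th instar 1 and 19.9 to 29.2 CPM in 3rd instar 3. For miR-184-x they were 21.3 to 36.1 CPM in 5th instar 2 and 16.5 to 27.3 CPM in 3rd instar 1. The small SDs of the 2 entries therefore understate the uncertainty of their levels. On this scale the 2 minor entries thus stood on opposite sides in the 5th instar. Of the 179 entries that passed the filter on low counts, 3 had a 5th instar outside the range of both other stages (1.68%), namely miR-184-x above and miR-184-z and miR-317-x below, the last of which was named after its values were seen. With library totals alone, or with the authors' TPM, the 5th instar of miR-184-x stayed above both other stages, whereas that of miR-184-z overlapped them.

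**Figure D1:**
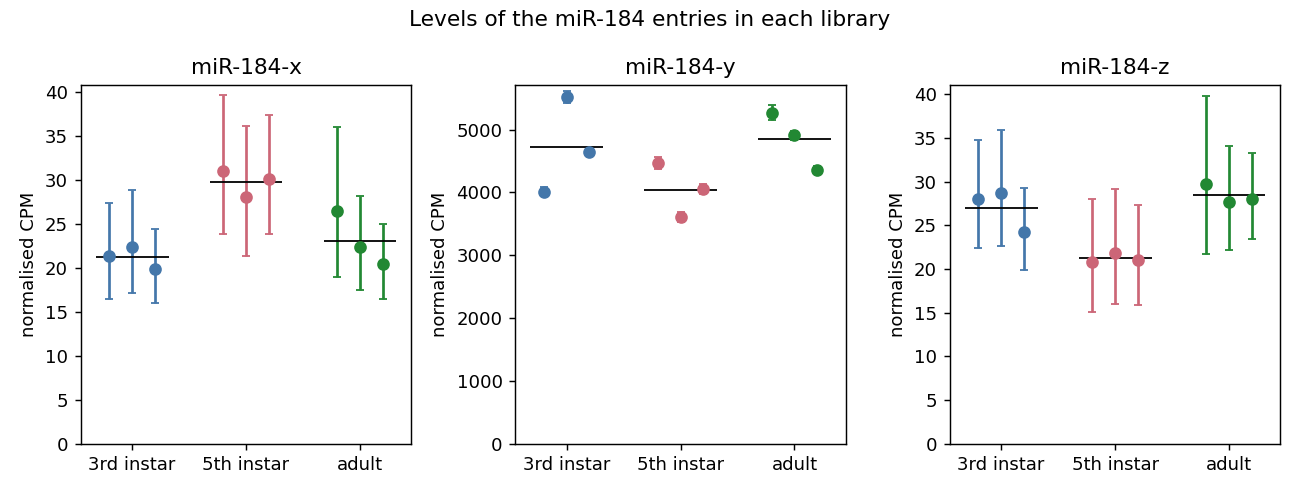
Normalised CPM of miR-184-x, miR-184-y and miR-184-z in each library, by stage. Points are libraries (3 per stage) with the exact Poisson 95% interval of the count, and horizontal lines are stage means. In the 5th instar miR-184-x lies at 28.0 to 31.0 CPM, above the other 6 libraries, and miR-184-z at 20.8 to 21.8 CPM, below them, while the stages of miR-184-y overlap.

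Both minor entries had low coefficients of variation over the experiment for entries of their level. With 40 to 94 counts of miR-184-x and 43 to 129 of miR-184-z per library, counting error is a large part of these values. It is larger still in the rarer entries of the window used, so the ranks below do not measure stability. The coefficient of variation over all 9 libraries was 17.3% for miR-184-x, and 2 of the 68 other tested entries within 3-fold of its mean level had a lower value (median 33.2%). For miR-184-z it was 14.01%, and 1 of 65 such entries was lower. miR-184-y, at 13.6%, had 7 of 17 entries of like level below it (median 15.6%).

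No miR-184 entry passed the test between any pair of stages. The limits stated by the study, an adjusted p below 0.05 together with a log2 fold change beyond 1 in either direction, defined a call. By edgeR's quasi-likelihood test 0 of the 3 members were called in each of the 3 comparisons, and DESeq2 called 0. Without adjustment, 0 members had a p under 0.05, against 17.3%, 10.1% and 35.8% of all tested entries in the 3 comparisons in the order below. The share of all 179 tested entries called was 1.68% for the 5th against the 3rd instar, 1.12% for the adult against the 5th instar and 3.91% for the adult against the 3rd instar, so that no call among 3 members is near what the whole table gave. In a test over all 3 stages at once, which 4.47% of entries passed, the members had adjusted p values of 0.270 (miR-184-x), 0.390 (miR-184-y) and 0.320 (miR-184-z).

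Between the nymphal stages, miR-184-x averaged 29.7 CPM in the 5th instar and 21.2 CPM in the 3rd instar, a log2 fold change of 0.49 ± 0.23 (SE; 95% interval -0.0067 to 0.98, unadjusted p = 0.0527, adjusted p = 0.269 by edgeR). miR-184-y had a log2 fold change of -0.22 ± 0.15 in the same comparison (95% interval -0.56 to 0.11, edgeR adjusted p = 0.438). miR-184-z had -0.35 ± 0.22 (95% interval -0.82 to 0.13, edgeR adjusted p = 0.409). The libraries of the stages did not overlap for miR-184-x and miR-184-z, as for 29.1% of all tested entries. Every interval lay within a 2-fold change in either direction. Scaling by library totals alone raised the median log2 fold change of all entries by 0.29 and turned miR-184-y to 0.072, which relative to that median was -0.22, against -0.23 with TMM factors.

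From late nymph to adult the signs were the opposite. miR-184-x averaged 23.1 CPM in adults and 29.7 CPM in the 5th instar, with a log2 fold change of -0.37 ± 0.23 (95% interval -0.86 to 0.13, edgeR adjusted p = 0.485). For miR-184-y the log2 fold change was 0.26 ± 0.15 (95% interval -0.076 to 0.60, edgeR adjusted p = 0.472), and for miR-184-z it was 0.42 ± 0.22 (95% interval -0.055 to 0.90, edgeR adjusted p = 0.472). The stages again did not overlap for miR-184-x and miR-184-z, which held for 14% of tested entries. These values and those of the nymphal comparison share the 5th instar libraries, so the change of sign is not a separate observation.

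The adult and the 3rd instar, at the ends of the series, were the closest pair for each entry. Log2 fold changes were 0.12 ± 0.23 for miR-184-x, 0.036 ± 0.15 for miR-184-y and 0.076 ± 0.22 for miR-184-z (edgeR adjusted p = 0.742, 0.892 and 0.838). The 95% interval for miR-184-y ran from -0.30 to 0.37, which does not reach the 2-fold change that a call needs. The stages overlapped for all 3 entries, against 31.3% of tested entries without overlap. With the 3 entries summed to a single row, log2 fold changes were -0.22 ± 0.16 for the 5th against the 3rd instar, 0.26 ± 0.16 for the adult against the 5th instar and 0.041 ± 0.16 for the adult against the 3rd instar, with edgeR adjusted p values of 0.462, 0.494 and 0.878.

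**Figure D2:**
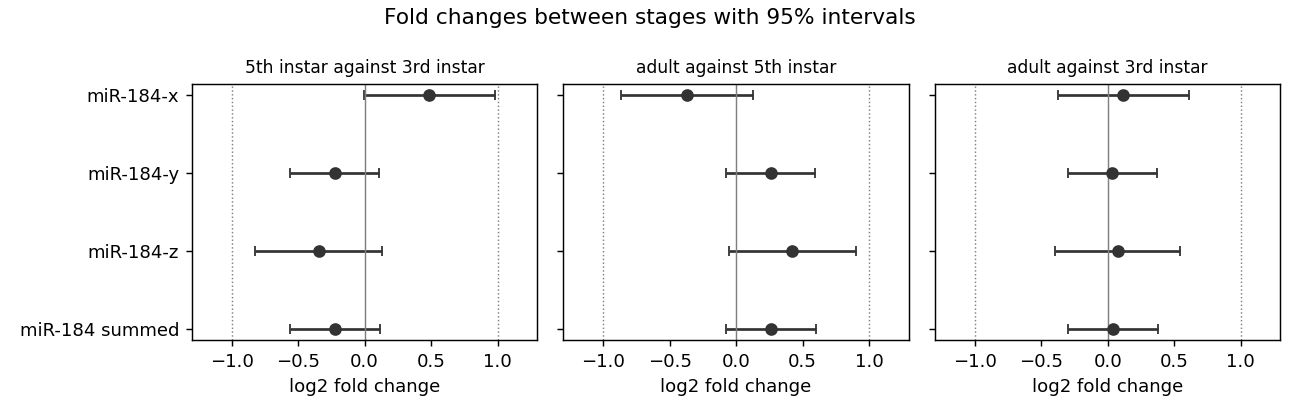
Log2 fold changes of the miR-184 entries and of their summed counts in the 3 comparisons, from edgeR. Bars are 95% intervals, the solid line is no change and the dotted lines are the fold limit of a call. All 12 intervals include 0 and lie within the dotted lines.

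A ratio between entries of the same library does not depend on how libraries are scaled. For each library the log2 of miR-184-x over miR-184-y was taken, with 0.5 added to each count. It was -7.54, -7.93 and -7.86 for the 3rd instar, -7.16, -7.00 and -7.06 for the 5th instar, and -7.62, -7.77 and -7.73 for the adult. All 3 libraries of the 5th instar were above all 6 others, and the other stages overlapped. In counts, a library held 223 ± 31.2 counts of miR-184-y per count of miR-184-x at the 3rd instar, 136 ± 7.69 at the 5th instar and 211 ± 10.4 at the adult stage (SD, n = 3 each).

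Stage means of this log2 ratio were -7.78 ± 0.21, -7.07 ± 0.082 and -7.71 ± 0.077 (SD, n = 3 each). The 5th instar exceeded the 3rd instar by 0.70 ± 0.13 (SE), a 1.63-fold higher ratio, and the adult was below the 5th instar by a difference of -0.63 ± 0.065, or 0.646-fold. The adult and the 3rd instar differed by 0.073 ± 0.13. The counting error of a single library was about as large as this spread or larger, 0.17 to 0.19 on the log2 scale by stage, since it rests on 40 to 94 counts of miR-184-x. It exceeded the SDs of the 5th instar and the adult, so the SE of 0.065 taken from them understates the uncertainty. Pairs of stages gave exact two-sided permutation p = 0.1, 0.1 and 0.6 in the order of the comparisons above, and 0.1 is the smallest p that 3 against 3 libraries allow.

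Over the 3 stages together, 88.8% of the variation in the ratio of miR-184-x to miR-184-y lay between stages, with an exact permutation p = 0.0214 over all 1680 assignments of the 9 libraries (smallest possible 0.00357). The same test was run on the x-to-y ratio of all 18 families whose x and y entries each averaged at least 10 counts. Adjusted over these 18, the exact p for miR-184 was 0.113 and no family passed, while 27.8% of them had an unadjusted exact p under 0.05. The arm ratio of miR-184 thus did not pass this adjustment. With a smallest possible p of 0.00357, however, no single family among 18 could reach an adjusted p under 0.05 alone. The adjustment therefore cannot decide whether the ratio shifted. The other families had been planned as a description without a test. The lowest exact p was 0.00357 and the highest 0.0357 when each library was left out in turn, and the p was 0.0556 with the replicate numbers kept as blocks. Both settings allow fewer assignments than the main test. With blocks the smallest possible p is larger, so that p cannot tell a weaker result from a coarser test.

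**Figure D3:**
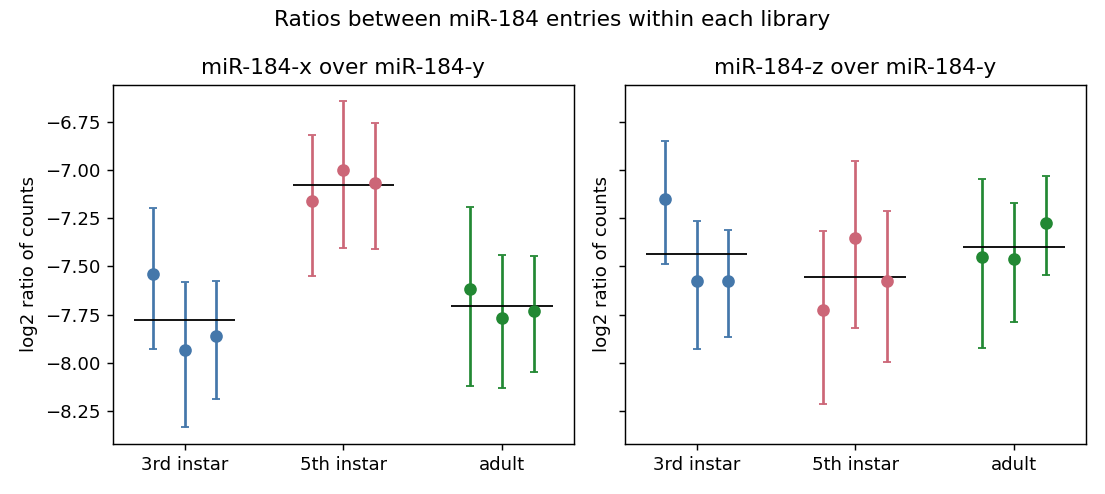
Log2 ratio of counts of miR-184-x (left) and miR-184-z (right) to those of miR-184-y in each library, by stage. Points are libraries with the exact binomial 95% interval, which covers counting error only, and horizontal lines are stage means. The 5th instar lies at -7.16 to -7.00 for miR-184-x over miR-184-y, above the other 6 libraries, while the stages overlap for miR-184-z over miR-184-y.

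Depth differed between the stages as well, with 3042011 to 5309504 counts in 3rd instar libraries, 1918962 to 2282357 in 5th instar libraries and 1462586 to 3955332 in adult libraries. Within each stage the shallowest library had the highest log2 ratio, -7.54 in 3rd instar 1 (3042011 counts), -7.00 in 5th instar 2 (1918962 counts) and -7.62 in adult 1 (1462586 counts). The deepest library of a stage never had the lowest ratio. It was -7.86 in 3rd instar 3, -7.06 in 5th instar 3 and -7.73 in adult 3, against lowest values of -7.93, -7.16 and -7.77. Adult 1, the shallowest library of all, lay below every 5th instar library. The part of depth in the ratio was not tested. Marker miRNAs were summed over their tested entries. These were 4 of 5 entries for muscle (miR-1 and miR-133) and 6 of 7 for neurons (miR-7, miR-9, miR-124 and miR-137). Those of muscle were at 8706 to 11444 CPM for the 3rd instar, 9529 to 10547 for the 5th instar and 11898 to 16726 for the adult. Those of neurons were at 6246 to 7471, 5297 to 5910 and 3553 to 3915 CPM in the same order. Of these, miR-124-x and miR-124-y averaged only 2.33 and 9.89 counts per library, and miR-9-x and miR-9-y 543 and 466 counts. They were thus a small part of the neuron sum, which followed mainly the other entries of that list and was not broken down further. No marker entry of either list was at 0 in all libraries. The 5th instar held neither the lowest nor the highest library of either list. Families known from vertebrates (miR-21, miR-29 and miR-143, 3 entries, none at 0 in all libraries) summed to 53.7 to 198.5, 13.3 to 36.4 and 23.2 to 35.4 CPM over the stages in order. The part of these sources of RNA in the ratio was not tested. A lower share of cells with a miRNA and less of it per cell cannot be told apart in such libraries.

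The 5th instar value of the arm ratio stood farther from the mean of the flanking stages in miR-184 than in the other families compared. Neither this measure nor the limit of 10 counts was in the plan. The measure has the form of the pattern in miR-184 itself, so the place of miR-184 among the families is a description and no separate support. The shift was 0.67 on the log2 scale in miR-184, and it ran from -0.59 to 0.36 in the other 17 families, with a median of 0.048 and 9 of 17 positive. Families below the limit of 10 counts were left out, and some of them shifted further. Among these, named after their values were seen, were miR-200 (1.60) and miR-279 (1.54) upward and miR-932 (-2.02) downward. Their rarer entries averaged 1.33, 3.78 and 0.778 counts, so a larger shift was not particular to miR-184 over all families. The 5th instar lay outside the range of both other stages in 2 of the 18 families (11.1%), miR-184 above and miR-317 below, the latter singled out after its values were seen. In the mean ratio over all libraries, miR-184 (-7.52) was among the most one-sided families, and 3 of the other 17, with y entries still further ahead of x, had a lower mean. Its SD over the 9 libraries was 0.36, against a median of 0.30 in the other families.

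**Figure D4:**
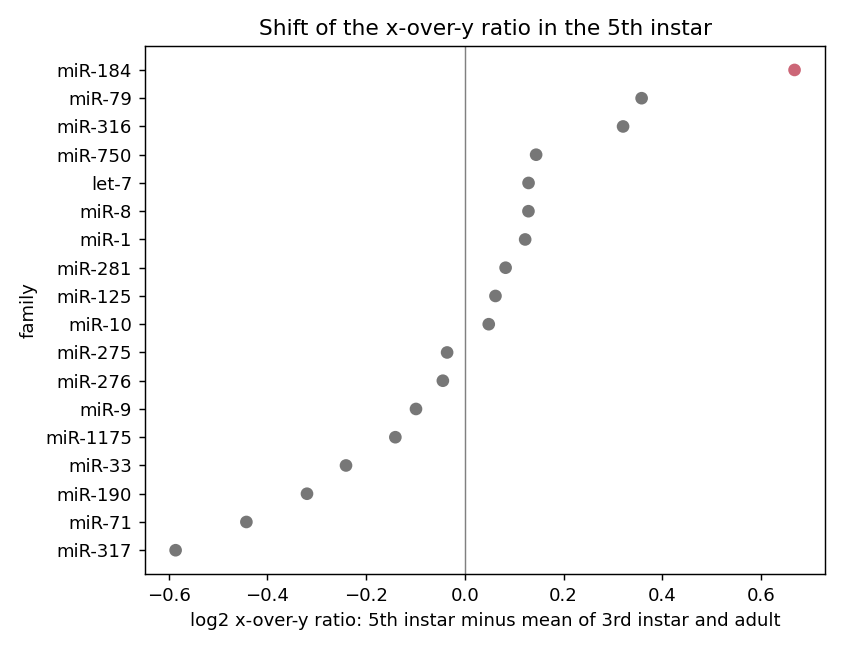
Log2 x-over-y ratio in the 5th instar minus the mean of the 3rd instar and the adult, for the 18 families whose x and y entries each averaged at least 10 counts. Each point is a family, and miR-184 is in red. miR-184 lies at 0.67 and the other 17 families between -0.59 and 0.36.

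The ratio of the longer form to the shorter did not differ between stages beyond its spread. The log2 ratio of miR-184-z to miR-184-y was -7.15, -7.58 and -7.58 for the 3rd instar, -7.73, -7.35 and -7.58 for the 5th instar, and -7.45, -7.46 and -7.28 for the adult. The stages overlapped in all pairs, 15.7% of the variation lay between stages, and the exact permutation p over the 3 stages was 0.604. The 5th instar differed from the 3rd instar by -0.12 ± 0.18, the adult from the 5th instar by 0.16 ± 0.12 and the adult from the 3rd instar by 0.037 ± 0.15 (SE). miR-184-z made up 0.464% to 0.696% of the counts of both forms, and the exact binomial 95% bounds over all libraries ran from 0.336% to 0.860%.

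The entries that followed each member most closely over the 9 libraries were sought among the 124 tested entries outside the family with a mean of at least 10 CPM. The measure was the Pearson correlation of log2 CPM, given as a description, since all values of a library share its depth and scaling. For miR-184-x the closest were let-7-x (r = 0.86), miR-125-x (0.74), miR-100-x (0.72), bantam-y (0.66) and let-7-z (0.63). let-7, miR-100 and miR-125 are made from a common transcript in flies that is switched on by ecdysone, the moulting hormone, and bantam promotes growth. let-7-x averaged 1853 CPM at the 3rd instar, 2386 at the 5th instar and 2093 at the adult stage. All of these entries had their lowest mean in the 3rd instar. The same 5 came first by Spearman's rho and with library totals alone, but none of them did when each library was taken relative to its stage mean, where let-7-x had r = 0.76.

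For miR-184-y the closest were miR-210-y (r = 0.69), miR-317-x (0.67), miR-34-x (0.60), miR-316-x (0.58) and miR-275-z (0.57). miR-317 and miR-34 lie in a cluster with miR-277 in flies, and miR-275 is needed for egg development in blood-fed mosquitoes. miR-317-x averaged 37.0, 29.3 and 51.7 CPM over the stages in order. For miR-184-z the closest were miR-317-x (r = 0.81), the muscle miRNA entries miR-1-z (0.71) and miR-1-y (0.65), miR-34-x (0.66) and miR-993-y (0.65). With library totals alone the choice of these was less steady than for miR-184-x, as 1 of the 5 of miR-184-y and 3 of the 5 of miR-184-z came among the first 5. By Spearman's rho 4 and 2 of them did, and relative to the stage means 1 and 2. In that last setting miR-34-x had r = -0.36 with miR-184-z. The members among themselves gave r = -0.28 for x and y, 0.61 for z and y, and -0.68 for x and z.

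Other miRNAs with known roles in egg formation or female reproduction of insects were taken as a list of 23 families without miR-184, of which 16 were in the table with 35 entries and 31 tested. In the 5th against the 3rd instar, 17 of the 31 were higher and 14 lower, with a median log2 fold change of 0.053, against 0.0036 over all 179 entries. edgeR called 0 of them there, against 1.68% of all tested entries, and DESeq2 called 0. An unadjusted p under 0.05 was reached by 4 of the 31, against 17.3% of all entries. Among the lowest p values were miR-71-x (-0.41 ± 0.15, edgeR adjusted p = 0.195), miR-71-z (-1.21 ± 0.46, adjusted p = 0.195), which holds the sequence of miR-71-x, and miR-125-x (0.32 ± 0.13, adjusted p = 0.221).

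In the adult against the 5th instar, 16 of the 31 were higher and 15 lower, with a median of 0.0025, against 0.079 over all entries. Of the 31, 2 had an unadjusted p under 0.05, against 10.1% of all entries, and 1 was called, against 1.12%. It was miR-277-y, higher in adults, a regulator of amino acid and lipid metabolism in flies and mosquitoes, which averaged 4276 ± 1330 CPM in adults and 1971 ± 240 CPM in the 5th instar (log2 fold change 1.12 ± 0.20, edgeR adjusted p = 0.0151). The call was lost with library totals alone, with these stages alone in the fit (adjusted p = 0.0848), and without 5th instar 1, 5th instar 2, adult 1 or adult 3. Its log2 fold change was 1.02 with library totals alone (adjusted p = 0.0715) and 0.82 without adult 1, and the adjusted p without the other 3 of these libraries was 0.0532 to 0.0932. Next were miR-34-x (0.67 ± 0.19, adjusted p = 0.173) and miR-71-y (-0.47 ± 0.22, adjusted p = 0.439).

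In the adult against the 3rd instar, 16 of 31 were again higher and 15 lower, with a median of 0.0091, against 0.0496 over all entries. An unadjusted p under 0.05 was reached by 7 of the 31, against 35.8% of all entries, and 2 were called, against 3.91%. Both rose, miR-277-y (1.32 ± 0.20, edgeR adjusted p = 0.00123) and the rare miR-305-z (2.54 ± 0.65, adjusted p = 0.0282), which averaged 15.4 ± 12.4 CPM in adults and 2.60 ± 1.09 CPM in the 3rd instar and was not called with the stricter filter (adjusted p = 0.0528), without adult 2 (adjusted p = 0.106) or without any of the 3rd instar libraries (0.110 to 0.142). miR-71-x followed at -0.46 ± 0.15 (adjusted p = 0.0756). Its adjusted p was under 0.05 in 3 of 17 alternatives, by edgeR with RLE factors (0.0458) or the stricter filter (0.0337) and by DESeq2 (0.00729). Its decrease stayed inside the fold limit of a call in all of them. miR-184-y, with 0.036 in this comparison and 4537 CPM over all libraries, stood beside that list median.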

How the data were processed

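Small RNA of 15 to 30 nt from 9 libraries was read as single ends of 50 bp, per the labels' protocols; no aligner, counting tool, reference or version is stated in these sources. The authors deposited raw read counts per entry and library, whole numbers that were not normalised, and TPM values, which per the file headers are the authors' scaling of those counts. The members, the lists and the rule for named entries were chosen with earlier results of these data known. Named were the 3 members, the 5 entries most like each, called list entries and the 3 of the list with the smallest p per comparison.

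Counts were fitted with edgeR 4.0.16 in R 4.3.3 over all 9 libraries (TMM factors, expression filter by stage, robust quasi-likelihood fit), 179 of 365 entries being tested, and p-values were adjusted by Benjamini-Hochberg over all of them. A standard error is the size of the log2 fold change over the root of its F statistic. Alternatives were DESeq2 1.42.0, other scalings and filters, the stages compared alone, a replicate block and leaving out each library. Log2 ratios used exact permutation tests. Duplexes were computed with RNAduplex 2.7.2. Procedures were run on simulated data with known changes. The share of true changes recovered there is not given here, so the sentence carries no statement of power. A count of 0 would allow a level of 0.652 to 1.99 CPM by library (3 counts), and no member had one. Poisson and binomial intervals of single libraries cover counting error only, and reads carry no molecular identifiers. Intervals of fold changes come from the edgeR fit and take in the spread between libraries.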

Additional observations from a re-analysis of the deposited data

How the results depend on the processing

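None of the 12 fold changes of the miR-184 entries and their sum was called under any of 204 alternatives (lowest adjusted p = 0.0931, miR-184-x, 5th against 3rd instar, library totals alone), and 15 alternatives changed a sign. In the 5th against the 3rd instar, library totals alone gave 0.072 for miR-184-y and 0.075 for the sum. In the adult against the 3rd instar, miR-184-y was -0.019 with RLE factors or DESeq2, -0.040 with the stricter filter and -0.031 to 0.14 without each library. The sum was -0.011 with RLE factors or DESeq2, -0.048 without a filter and -0.11 to 0.16 without each library. Every value of changed sign was smaller than the standard error of the reported one, and the cause was not tested.

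The exact p of the x-to-y ratio was 0.0556 with the replicate block, a coarser test with fewer assignments, and 0.00357 to 0.0357 without each library. Replicate numbers were not taken as pairs in the main tests. Same-numbered libraries of different stages had correlations of deviations from -0.23 to 0.42, against -0.43 to 0.28 for differently numbered ones. Of the 9 libraries, 5 correlated best with their own number, so these values cannot set a pairing by number aside. The x-to-y difference between the adult and the 3rd instar was -0.0040 to 0.19 without each library. For z to y it was -0.22 to 0.024 in the 5th against the 3rd instar and -0.034 to 0.18 in the adult against the 3rd instar. edgeR's diffSpliceDGE, which sets an entry against its family and was chosen after seeing the data, gave 0.49 for miR-184-x in the 5th against the 3rd instar and -0.43 in the adult against the 5th instar (unadjusted p = 0.207 and 0.265). The diffSpliceDGE p values adjusted over 74 entries were 0.99996 and 0.99995, and 0 of the 74 passed in either comparison. The shift of miR-184-x thus did not pass by this test. Taking miR-184-x over the sum of y and z, also chosen after seeing the data, left the exact p at 0.0214.

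Of all entries, 3 were called in the 5th against the 3rd instar, 1 with library totals alone and 1 to 3 without each library. In the adult against the 5th instar 2 were called, 1 with library totals alone, 0 with these stages alone and 0 to 2 without each library. In the adult against the 3rd instar 7 were called, 19 with library totals alone, 15 by DESeq2, 14 by adjusted p alone and 3 to 9 without each library. Depth limits the ratios through the 40 to 129 counts of the minor entries.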
